A study of Rattus norvegicus with 9 samples.

Results

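Toll-like receptors and 2 proteins that work with them were followed in rat brain after stroke. The set held 10 genes, namely the receptors Tlr2, Tlr3, Tlr4, Tlr5, Tlr6, Tlr7, Tlr8 and Tlr9, the co-receptor Cd14 and the adaptor Myd88. All probes that the array files list under these names were taken, which gave 11 of 30367 probes because Tlr3 has 2. A gene with more than 1 probe is represented by the brightest. The data came from 9 Agilent 1-color arrays with 3 arrays each for Sham, I/R, and DHI, from the infarcted hemispheres of Sprague Dawley rats at day 14, and the study describes the 3 arrays of a group as biological replicates. In I/R rats a nylon suture blocked the middle cerebral artery for 2 h and was then withdrawn (ischemia/reperfusion). DHI rats had the same surgery and then daily tail vein doses of Danhong injection, an extract of Salvia and safflower used against stroke, up to day 14. In Sham rats the external carotid artery, through which the suture is passed, was exposed without inserting it, and they received the solvent. The tissue was a mixture of all brain cells and of any blood cells that had entered it, and only 1 time point was sampled.

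Toll-like receptors are sensors of innate immunity that bind molecules of microbes and molecules released from damaged tissue. Tlr2, Tlr4, Tlr5 and Tlr6 sit at the cell surface, where Tlr2 pairs with Tlr6, and where Cd14 hands ligands to Tlr4 and its partner Ly96. Tlr3, Tlr7, Tlr8 and Tlr9 sit in endosomes and sense nucleic acids. Every receptor of the set except Tlr3 signals through Myd88, and in the brain microglia and macrophages are the main cells that express them.

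The array reads each gene through an oligonucleotide of 60 bases. The probes of Tlr4 and Tlr7 are shown because Tlr4 is set against the other receptors and Tlr7 had the largest fitted change of the set in I/R versus Sham. Those of Tlr2 and Tlr6 are shown because these genes are close relatives, with capitals marking their longest shared run. On the rn4 build, as the files give it, the Tlr4 probe lies on the plus strand at chr5:83577410-83577469, Tlr7 on the plus strand at chrX:47356167-47356226, Tlr2 on the minus strand at chr2:175608160-175608217, and Tlr6 on the plus strand at chr14:46100547-46100606. No annotation of that build was used here, so exons and UTRs are not assigned.
Tlr4: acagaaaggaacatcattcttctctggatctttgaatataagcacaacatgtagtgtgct
Tlr7: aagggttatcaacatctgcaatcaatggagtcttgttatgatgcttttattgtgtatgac
Tlr2: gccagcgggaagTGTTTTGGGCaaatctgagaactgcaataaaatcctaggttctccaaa
Tlr6: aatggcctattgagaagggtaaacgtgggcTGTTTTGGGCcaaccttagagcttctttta
The Tlr2 and Tlr6 probes shared a run of 10 bases and, in the ungapped alignment around it, 27 of 42 aligned bases. The arrays cannot show how much of either transcript bound the other probe.

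The promoters of all 10 genes were also compared, whether or not the gene could be tested, using the 250 bases before and 50 bases after the start site (RefSeq, GRCr8). The letters GAGGAA, on either strand, form the core that is bound by PU.1, the product of Spi1 and a transcription factor of myeloid cells. They occurred in the promoters of Tlr3, Tlr4, Tlr6, Tlr7, Tlr8, Tlr9 and Cd14, which is 7 of 10, against 27.6% of 33469 rat promoters of the same length. Tlr4, Cd14 and Tlr9 held 2 matches each, and Tlr2, Tlr5 and Myd88 held none. The promoters of Tlr4 and Cd14, which are tied together in ligand binding, are shown with the matches in capitals, beside that of Tlr2. Tlr4 lies on the plus strand at chr5:85160997-85161296, Cd14 on the minus strand at chr18:28611109-28611408, and Tlr2 on the minus strand at chr2:171504508-171504807.
Tlr4: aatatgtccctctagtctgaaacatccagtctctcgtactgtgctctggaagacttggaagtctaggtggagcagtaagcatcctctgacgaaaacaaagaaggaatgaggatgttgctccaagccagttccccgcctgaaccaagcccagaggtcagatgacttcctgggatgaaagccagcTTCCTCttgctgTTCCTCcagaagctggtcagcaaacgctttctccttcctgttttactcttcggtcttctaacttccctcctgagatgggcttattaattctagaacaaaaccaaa
Cd14: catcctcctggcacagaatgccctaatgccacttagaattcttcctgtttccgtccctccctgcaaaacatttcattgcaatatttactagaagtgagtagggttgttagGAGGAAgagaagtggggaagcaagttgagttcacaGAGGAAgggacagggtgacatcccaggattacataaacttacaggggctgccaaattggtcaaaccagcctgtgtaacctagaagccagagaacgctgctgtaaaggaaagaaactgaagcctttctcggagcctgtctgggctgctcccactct
Tlr2: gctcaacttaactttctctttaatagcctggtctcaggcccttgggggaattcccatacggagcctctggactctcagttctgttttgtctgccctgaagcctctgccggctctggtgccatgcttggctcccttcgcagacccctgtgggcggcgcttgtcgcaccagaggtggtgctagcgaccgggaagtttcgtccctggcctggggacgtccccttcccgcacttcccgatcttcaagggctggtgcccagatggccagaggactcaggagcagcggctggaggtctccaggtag
In Tlr4 the matches began 67 and 55 bases before the start site, and in Cd14 140 and 105 bases before it. A match is a run of letters and not a measured binding site.

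Values are given as log2 signal, that is, the log2 of the probe intensity minus the log2 of the 75th percentile of its array, so that 0 is that percentile and 1 unit is a factor of 2. The percentile lay between an intensity of 1816 and one of 3464, 0 probes were saturated, and 75.2 to 78.95% of probes per array were well above background. Levels of different probes cannot be compared, because probes bind with different strength. The markers of neurons, astrocytes and oligodendrocytes, 4 of each, were well above background on all 9 arrays. Slide 1 carried Sham and I/R and slide 2 carried DHI, so an effect of the slide cannot be told apart from one of the injection. DHI 1 stood apart from the other DHI arrays on these genes, so the DHI results are also given without it, as a description. Precision is limited by the 3 arrays in each group. Tests required a probe to be well above background throughout 1 or more groups, which held for 8 of the 10 members. Of these, 7 were so on all 9 arrays, while Tlr8 passed through its I/R arrays alone, so that its difference from the other groups was partly fixed by that requirement and is given as a description.

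In I/R versus Sham, which asks what the injury left behind at day 14, all 7 members that were well above background on every array rose. The log2 change ran from 2.28 in the adaptor Myd88 to 4.27 in the RNA sensor Tlr7, with the surface receptors Tlr2, Tlr4 and Tlr6, the endosomal receptor Tlr3, and Cd14 in between. That order held for the main background setting, since with normexp the 7 changes ran from 2.21 in Tlr4 to 3.41 in Tlr2. In each of the 7 genes every I/R array was above every Sham array.

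Among the surface receptors, Tlr2, which senses bacterial lipopeptides, had a log2 signal of -1.36, -1.47 and -1.44 in Sham 1 to 3 and of 2.57, 2.37 and 1.32 in I/R 1 to 3. The Sham arrays lay close together, while I/R 3 was more than 1 unit under the other I/R arrays. The log2 change was 3.51 (SE 0.77, adjusted p = 0.0396, limma), an 11.4-fold rise. Tlr6, the partner of Tlr2, read -2.31, -2.23 and -2.49 in Sham and 1.21, 1.04 and 0.16 in I/R, with the same I/R array lowest. It rose by 3.14 (SE 0.64), or 8.84-fold. Tlr4, the receptor of endotoxin, read -5.08, -5.19 and -5.32 in Sham and -1.83, -1.94 and -2.89 in I/R. The Tlr4 groups were separated by more than 2 units, and the change was 2.98 (SE 0.75, adjusted p = 0.0396), or 7.89-fold. Tlr5, the receptor of flagellin, was well above background on 1 of 9 arrays, Sham 1, and was not tested. Its log2 signal was -7.62, -9.06 and -10.06 in Sham, -8.35, -8.22 and -9.58 in I/R, and -7.94, -8.60 and -8.97 in DHI, so that the groups overlapped.

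Among the endosomal receptors, Tlr3, a sensor of double-stranded RNA, read -3.23, -3.69 and -3.35 in Sham and -0.10, 0.90 and -0.20 in I/R. Its highest I/R array was I/R 2, where the surface receptors had theirs in I/R 1. The change was 3.63 (SE 0.61, adjusted p = 0.0396, limma), or 12.4-fold, and the second Tlr3 probe gave 3.92 (SE 0.73). Tlr7, a sensor of single-stranded RNA, read -6.47, -7.04 and -7.17 in Sham and -1.84, -2.61 and -3.41 in I/R, the widest gap of the set. It rose by 4.27 (SE 0.90), or 19.3-fold, and by 2.53 where the background was corrected with normexp. Tlr8, the neighbor of Tlr7 on the X chromosome, was read by a single spot per array. It was not well above background in Sham, at -8.53, -9.41 and -10.08, and was so on all 3 I/R arrays, at -5.42, -5.06 and -6.55. With each Sham signal raised, where lower, to the dimmest signal that passed background on its array, Tlr8 was 8.43-fold higher in I/R. Some brighter signals did not pass, so that fold is not a strict minimum. The fitted change was 3.66 (adjusted p = 0.0400, limma), and it came to 0.73 with normexp. That p supports nothing here, because the gene was tested through I/R alone. Tlr9, the sensor of bacterial DNA, was well above background on no array and was not tested, with a log2 signal of -9.88, -9.95 and -9.99 in Sham, -7.72, -7.77 and -9.57 in I/R, and -9.36, -9.22 and -9.40 in DHI.

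Cd14, which also binds endotoxin and serves Tlr4 and Tlr2, read -3.95, -4.30 and -4.16 in Sham and 0.00, -0.08 and -1.14 in I/R. It rose by 3.73 (SE 1.05, adjusted p = 0.0405, limma), or 13.2-fold, with the largest SE of the set. Myd88, the shared adaptor, read -0.23, -0.47 and -0.53 in Sham and 2.32, 2.07 and 1.21 in I/R. It rose by 2.28 (SE 0.59, adjusted p = 0.0396), or 4.84-fold. I/R 3 was the lowest I/R array in all 8 genes tested.

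**Figure D1:**
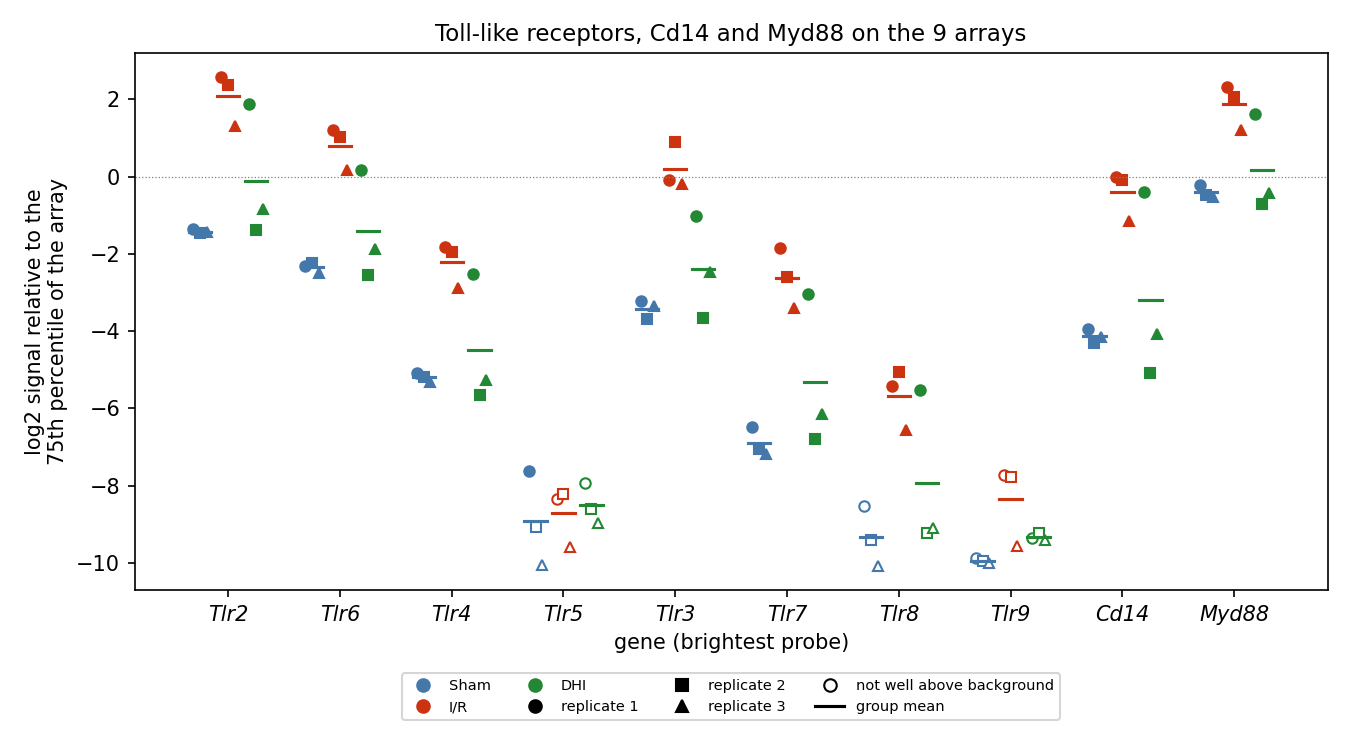
Log2 signal of the 10 genes (horizontal axis) on each of the 9 arrays (vertical axis, where 0 is the array's 75th percentile), colored by group, with the replicate as the symbol, open symbols for spots not well above background, and bars for group means. In the 8 genes tested all I/R points lie above all Sham points, and the DHI points spread from the Sham to the I/R level. The 8 include Tlr8, which was tested through I/R alone.

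At an unadjusted p under 0.05 and FC over 1.5, the thresholds of the study, 7 of the 7 members well above background on all arrays were called higher in I/R, against 20.8% of all probes tested. The methods' t-test called 7 of 7, against 19.6%. With limma's adjusted p in place of the unadjusted p it was again 7 of 7, against 16.4%, and the groups did not overlap in 7 of 7, against 26.7% of probes higher in I/R. Tlr8 was called by each rule as well. The median log2 change of the 7, that of Tlr2, was 3.51, while that of all 23747 probes was -0.10. The adjusted p of the members lay between 0.0396 and 0.0405, close to the threshold. The adjusted count was 0 on leaving out DHI 3 (adjusted p 0.0577 to 0.0585), I/R 1 (0.133), I/R 2 (0.129), or any one of Sham 1 (0.0880 to 0.0887), Sham 2 (0.122) and Sham 3 (0.110), while the 7 and Tlr8 stayed called at the unadjusted p. With no scaling between arrays the adjusted count was also 0. In each of these settings only 0 or 1 of all 23747 probes passed the adjusted threshold.

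The markers of microglia and macrophages moved with the set. Of 8 markers tested, 7 were called higher in I/R, against 20.8% of all probes, with a median log2 change of 3.398 over the 8. The largest rises were in the lysosomal protein Cd68 (6.69, SE 1.45), the leukocyte phosphatase Ptprc (4.68, SE 1.02) and the growth factor receptor Csf1r (3.60, SE 0.82). The 1 that was not called was the chemokine receptor Cx3cr1 (-0.998, SE 0.52, adjusted p = 0.157, limma). All 8 markers were well above background on all 9 arrays. Their mean log2 signal ran from -0.97 to -0.89 in Sham, from 1.42 to 2.93 in I/R, and from -0.80 to 2.04 in DHI. Relative to the Sham mean, the 8 members stood 3.76, 3.73 and 2.71 higher in I/R 1 to 3 and the markers 3.85, 3.38 and 2.34 higher. The 8 include Tlr8, which was tested through I/R alone, so the members' rise was partly fixed by the filter. The difference between the mean of the members and that of the markers therefore moved by between -0.09 and 0.37 in I/R. The part of these cells in the rise was not tested. In RNA of whole tissue, more cells of a type and more RNA per cell cannot be told apart.

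**Figure D2:**
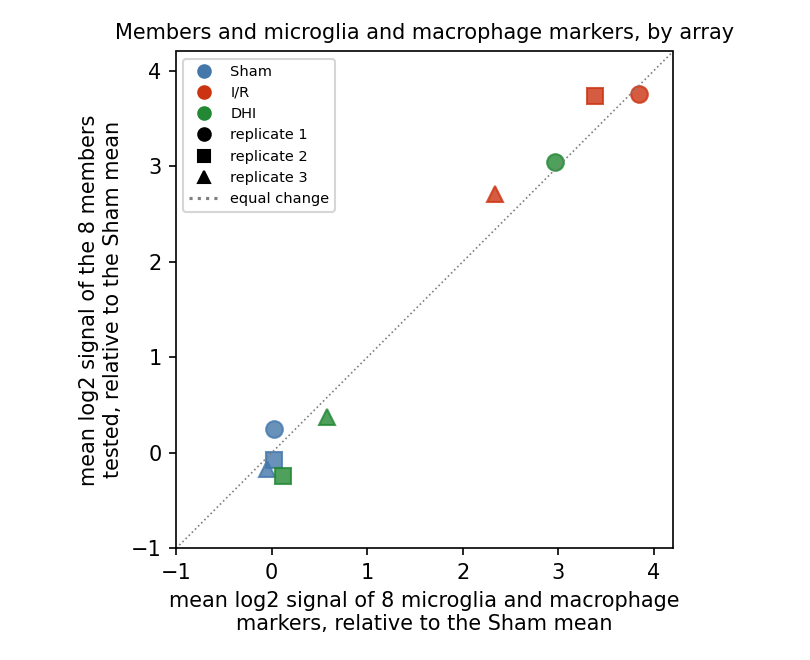
Mean log2 signal of the 8 members tested (vertical axis) against that of 8 microglia and macrophage markers (horizontal axis), both relative to the Sham mean, with 1 point per array and a dotted line of equal change. The I/R arrays and DHI 1 lie at the upper end, between 2.34 and 3.85 for the markers, and the other DHI arrays lie near the Sham arrays. The members include Tlr8, which was tested through I/R alone.

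Other marker lists moved too. In I/R, the neutrophil and monocyte genes Lyz2 (3.53, SE 0.87), S100a8 (2.01, SE 0.49) and S100a9 (1.42, SE 0.43) rose, which were 3 of the 4 such markers tested. The other, Mpo, lay slightly lower in I/R and was not called (-0.31, SE 0.23, adjusted p = 0.302, limma). The defining markers Ccr2 and Elane were well above background on 1 and 0 of 9 arrays, respectively. The T cell gene Cd3g rose by 2.71 (SE 0.66), 1 of 3 lymphocyte markers tested. Neuron markers fell in 4 of 4, for example Snap25, which serves vesicle release, by 3.00 (SE 0.74), and the neurofilament Nefl, by 3.04 (SE 0.83). Astrocyte markers were called higher in 3 of 4, with Gfap at 3.63 (SE 0.67), oligodendrocyte markers in 0 of 4, endothelial markers in 2 of 4, and the red blood cell markers were called lower in 3 of 3. Over all probes, 20.8% were called higher and 22.3% lower. Aldh1l1 of the astrocyte markers, Pecam1 of the endothelial ones and the 3 red blood cell markers did not pass the adjusted threshold (adjusted p 0.0728 to 0.0893, limma). The part of all these cells in the rise of the set was likewise not tested.

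In DHI versus I/R, which asks whether treatment changed that state, all 8 members tested had lower means in DHI, and none passed the adjusted threshold. In the main setting the log2 change ran from -1.70 in Myd88 to -2.78 in Cd14. The DHI arrays were far apart. DHI 1 was close to the I/R arrays, while DHI 2 and DHI 3 were close to Sham.

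Tlr2 read 1.87, -1.39 and -0.83 in DHI 1 to 3, a spread of more than 3 units in which DHI 1 fell inside the I/R range. Its log2 change was -2.20 (SE 0.77, adjusted p = 0.196, limma). Tlr6 read 0.18, -2.55 and -1.87, with a change of -2.22 (SE 0.64). Tlr4 read -2.53, -5.66 and -5.26, with DHI 2 under all Sham arrays. Its change was -2.26 (SE 0.75, adjusted p = 0.196), or 4.80-fold lower. Over the alternative settings, single arrays left out included, the Tlr4 change ran from -3.29 to -1.39.

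Tlr3 read -1.02, -3.67 and -2.46, and was the 1 member whose DHI arrays all lay below all I/R arrays. Its change was -2.59 (SE 0.61, adjusted p = 0.196, limma), and its second probe gave -2.75 (SE 0.73), again without overlap. Tlr7 read -3.04, -6.79 and -6.14, with a change of -2.70 (SE 0.90), which ran from -3.85 to -1.39 over the alternatives. Tlr8 was well above background on DHI 1 alone, at -5.51, and read -9.22 and -9.10 on the other DHI arrays. Its fitted change was -2.27 (SE 0.98), which came to -0.01 with normexp. Cd14 read -0.39, -5.09 and -4.07, the widest DHI spread of the set, with a change of -2.78 (SE 1.05). Myd88 read 1.63, -0.71 and -0.41, with a change of -1.70 (SE 0.59).

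At the thresholds of the study, limma called 7 of 7 members lower in DHI, and Tlr8 besides, against 10.5% of all probes tested. The median log2 change of the 7, that of Tlr4, was -2.26 where that of all probes was 0.10. With the adjusted p, 0 of the 8 tested were called, against 0.00421% of all probes, with adjusted p values of 0.196 in all 8 and an unadjusted p under 0.05 in 8. The methods' t-test, which does not borrow the Sham arrays for its estimate of spread, called 1 of 8 (Tlr3), against 0.737% of probes. The groups did not overlap in 1 of 8 (Tlr3), against 4.02% of probes lower in DHI.

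The call depended on single arrays. Without DHI 1, the 7 passed the adjusted threshold, and Tlr8, tested through I/R alone, besides (adjusted p 0.00173 to 0.00459, limma). Those p values support nothing here, because DHI 1 was singled out by its values on these genes. The log2 changes ran from -4.18 to -2.43, and 40.1% of all probes passed too. Without DHI 2, without DHI 3, or without I/R 1, only Tlr3 and Tlr6 were called at the unadjusted p. In either direction 3.95%, 4.75% and 5.82% of all probes were called there, against 5211 of 23747 with all arrays. Without I/R 2, Tlr3, Tlr4, Tlr6 and Tlr7 were called, with 6.99% of all probes. Without any 1 Sham array 7 were, Tlr8 being lost, with 16% to 16.5% of all probes.

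The position of each DHI array between the Sham and I/R means was read gene by gene. DHI 1 was nearer to the I/R mean in all 8 members tested, as it was for 96.6% of the 4950 probes called higher in I/R. DHI 2 was nearer to the Sham mean in all 8 and DHI 3 in all 8, while 4.48% and 14.6% of those probes were nearer to I/R. With Sham set to 0 and I/R to 1, Tlr4 stood at 0.90, -0.16 and -0.02 in DHI 1 to 3, Tlr2 at 0.94, 0.01 and 0.17, and Tlr3 at 0.66, -0.07 and 0.27. Over all 8, DHI 1 was the highest and DHI 2 the lowest DHI array. The microglia and macrophage markers had the same order, at 2.96, 0.12 and 0.58 relative to the Sham mean in DHI 1 to 3. The members, Tlr8 included, stood there at 3.04, -0.24 and 0.38. Of the 8 markers, 6 were called lower after DHI, against 10.5% of all probes, with a median change of -2.001, and 0 passed the adjusted threshold. The 2 not called were Itgam (-1.73, SE 0.91) and Cx3cr1, which went the other way (0.90, SE 0.52). Astrocyte markers were called lower in 2 of 4, with Gfap at -2.004 (SE 0.67) and Aqp4 at -1.11 (SE 0.42). Of the 4 monocyte and neutrophil markers Lyz2 was called lower (-2.17, SE 0.87) and Mpo higher (0.94, SE 0.23), and of the 3 lymphocyte markers Cd3g was called lower (-2.04, SE 0.66). Neuron markers were called higher in 4 of 4 and red blood cell markers in 3 of 3, against 11.5% of all probes. None of these marker calls in DHI versus I/R passed the adjusted threshold. What part these cells have in the values of the set was not tested.

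**Figure D3:**
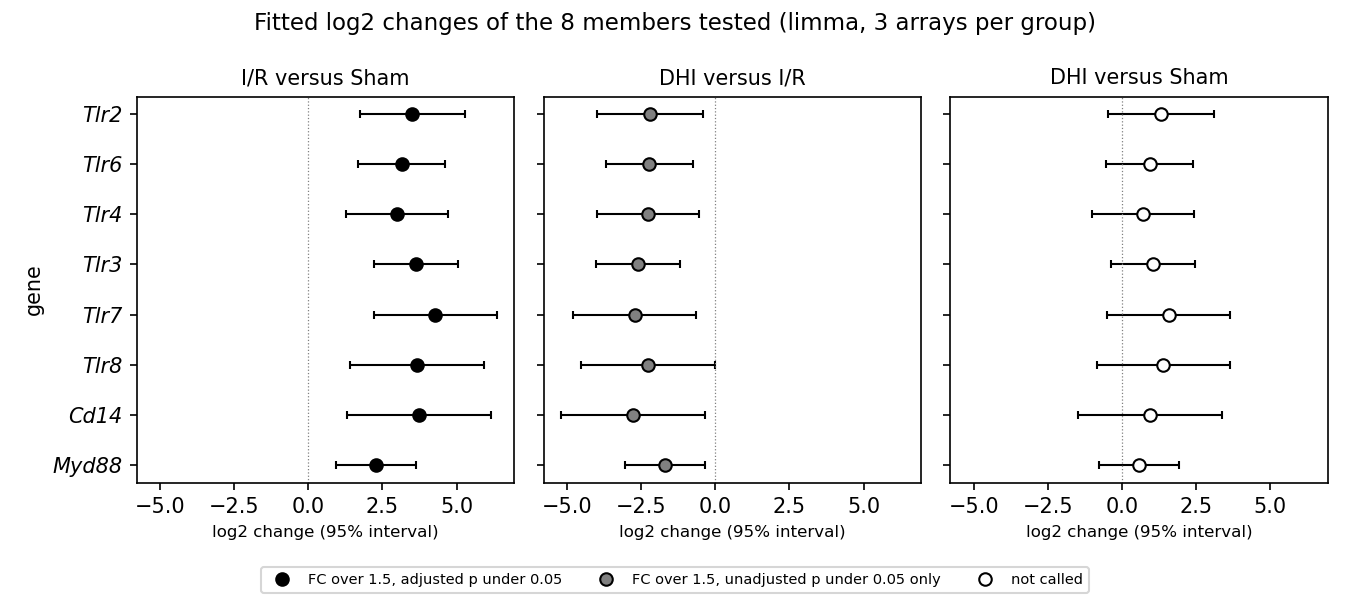
Log2 change of the 8 members tested (horizontal axis, point with 95% interval from limma) in the 3 comparisons, with black points for calls at an adjusted p under 0.05, grey for calls at the unadjusted p alone, and white for no call. The intervals lie above 0 in I/R versus Sham and below 0 in DHI versus I/R, and they span 0 in DHI versus Sham. Tlr8 was tested through I/R alone, so its points and intervals are a description.

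In DHI versus Sham, which asks what remained after treatment, 0 of 8 members were called at the unadjusted thresholds or with the adjusted p, against 2.52% of probes called higher and 0% with the adjusted p. No member had an unadjusted p under 0.05, from limma or from the methods' t-test. The means were higher in DHI for all 8, by 0.58 (SE 0.59) in Myd88 up to 1.57 (SE 0.90) in Tlr7, with adjusted p values of 0.709 to 0.734. The 95% interval of Tlr4 ran from -1.003 to 2.44 and that of Tlr7 from -0.51 to 3.64, so that a rise or no rise of either gene was within its interval. Without DHI 2, Tlr2, Tlr3, Tlr6 and Tlr7 were called higher at the unadjusted p, where calls in either direction rose from 3.58% to 10.6% of all probes. Without DHI 1, the differences ran from -0.45 to 0.43.

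Tlr4 was then set against the other receptors on the same arrays, which removes the scaling between arrays. For each array the mean log2 signal of the other 7 receptors was taken from that of Tlr4. Relative to the Sham mean, this difference was 0.14, -0.02 and 0.25 in I/R 1 to 3, -0.30, 0.09 and 0.21 in Sham, and 0.18, -0.58 and -0.56 in DHI. The groups overlapped. Tlr4 changed by 0.12 more than the mean of the others in I/R versus Sham (exact permutation p = 0.6, two-sided), by -0.44 in DHI versus I/R (exact p = 0.3) and by -0.32 in DHI versus Sham (exact p = 0.3), where 3 arrays against 3 cannot give less than 0.1.

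That mean includes Tlr5, Tlr8 and Tlr9, which were at background on most arrays. With only Tlr2, Tlr3, Tlr6 and Tlr7, which were well above background on all 9 arrays, Tlr4 rose by 0.66 less than their mean in I/R versus Sham (exact permutation p = 0.1), a choice made after the values were seen. With the median of the 7 in place of their mean, which was Tlr7 on each array, the difference was -1.29.

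Receptor by receptor, Tlr4 was nearest to Tlr6 in its I/R versus Sham change, followed by Tlr2. That order held for the main background setting. With normexp the changes were 2.21 in Tlr4, 2.53 in Tlr7, 2.99 in Tlr6, 3.32 in Tlr3 and 3.41 in Tlr2. Of these, Tlr7 was then nearest to Tlr4. The values that follow are for the main setting. The Tlr4 minus Tlr6 difference moved by -0.18, -0.12 and -0.19 in I/R 1 to 3, against 0.08, -0.11 and 0.02 in Sham, all relative to the Sham mean. These groups did not overlap, with a difference of -0.16 (exact permutation p = 0.1). Against Tlr2 the same values were -0.62, -0.54 and -0.44 in I/R, against 0.05, 0.05 and -0.10 in Sham, a difference of -0.53 (exact p = 0.1). In DHI they were -0.62, -0.50 and -0.65, which overlapped I/R (difference -0.06, exact p = 0.5) and lay below Sham (-0.59, exact p = 0.1), also on DHI 2 and DHI 3, where Tlr4 itself was near or under the Sham level. Against Tlr7 they were -1.68, -1.03 and -1.17 in I/R, a difference of -1.29 (exact p = 0.1), and against Tlr3 and Tlr8 the groups overlapped, with differences of -0.65 and -0.68 (exact p = 0.3 each). Against Tlr5 and Tlr9, both near background, the differences were 2.78 and 1.39 (exact p = 0.1 each). Over the 21 pairs of receptor and comparison, the smallest p after Benjamini-Hochberg adjustment was 0.2625, and with 3 arrays per group no pair could have passed.

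**Figure D4:**
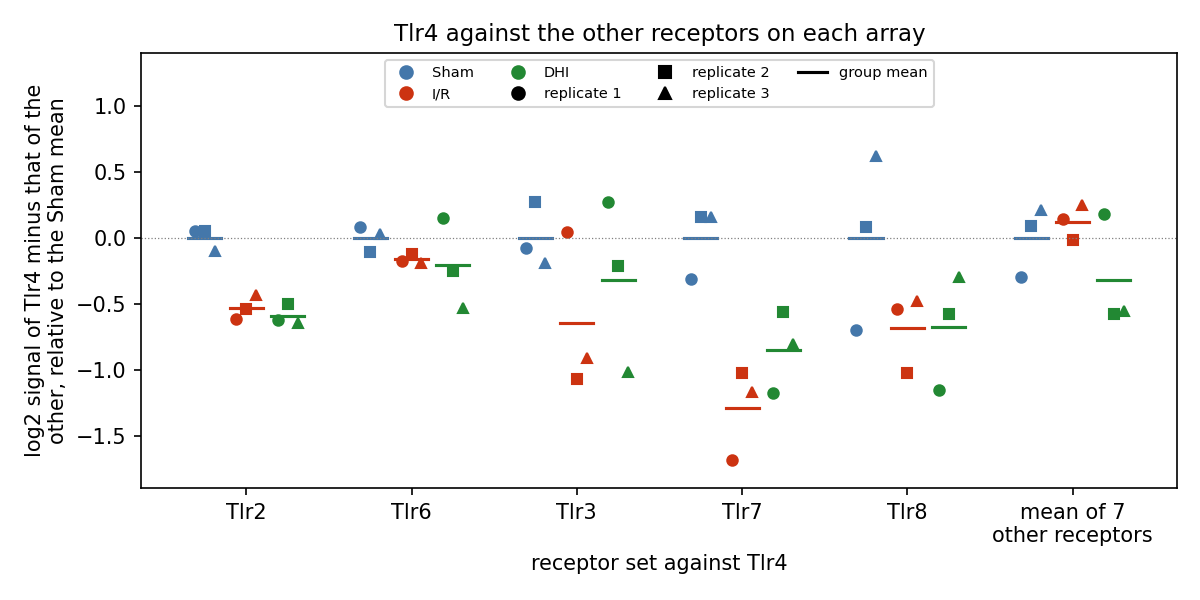
Log2 signal of Tlr4 minus that of 5 other receptors, or minus the mean of all 7 others (horizontal axis), on each array, relative to the Sham mean (vertical axis), with bars for group means. The I/R points lie below the Sham points against Tlr2, Tlr6 and Tlr7, and overlap them for Tlr3, Tlr8 and the mean.

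Among 15576 genes, those whose log2 signal followed Tlr4 most closely over the 9 arrays included Cmtm6, a membrane protein that stabilizes PD-L1 (r = 0.9979), Fam176b (r = 0.9978), Gnai3, an inhibitory G protein subunit (r = 0.9977), and Il21r, the receptor of interleukin 21 (r = 0.9975). The log2 changes of these 4 in I/R versus Sham ran from 1.39 (SE 0.35) in Gnai3 to 3.74 (SE 0.91) in Il21r. Of the set, Myd88 was nearest to Tlr4 (r = 0.9976, with 4 genes above it), then Cd14 (r = 0.9951), Tlr6 (r = 0.9922), Tlr2 (r = 0.9908), Tlr7 (r = 0.9861), Tlr8 (r = 0.9757) and Tlr3 (r = 0.9539, with 1798 genes above it). The median gene had r = -0.25. These correlations describe 9 arrays that share the group differences, and they are given without a test.

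The other genes of the pathway were taken from 7 lists with 76 entries, of which 63 were tested. In I/R versus Sham, 45 were called higher, 4 lower and 14 not called, against 20.8% and 22.3% of all probes. For DHI versus I/R, 1 was called higher and 32 lower, against 11.5% and 10.5% of all probes, with 0 past the adjusted threshold. For DHI versus Sham, 6 were called higher, against 2.52% of all probes, and 0 lower. Tlr11, Tlr12, Lbp, Tirap and Cd86 passed the filter through I/R alone and are given as a description. Over the 56 genes well above background on all 9 arrays, 38 were called higher and 4 lower in the first comparison, 1 higher and 26 lower in the second, and 4 higher and 0 lower in the third.

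Of the further receptors, Tlr11 was well above background on 0 of 3 Sham and 3 of 3 I/R arrays. By the rule used for Tlr8 it was 7.24-fold higher in I/R. Its adjusted p of 0.0396 (limma) supports nothing here, because it was tested through I/R alone. Tlr12, also tested through I/R alone, had a fitted difference of 2.79 (SE 0.80). Of 10 co-receptors and trafficking proteins, 8 were called higher in I/R, with a median change of 3.17 over the 10. Lbp, which carries endotoxin to Cd14, had a fitted difference of 5.60 (SE 1.25) from a Sham signal that passed background on 1 array. Ly86, the partner of the receptor homolog Cd180, rose by 4.46 (SE 0.92), and Unc93b1, which escorts the endosomal receptors out of the endoplasmic reticulum, by 4.21 (SE 0.91). The treated group had 7 of these 10 called lower than I/R, among them Ly86 at -2.82 (SE 0.92) and Unc93b1 at -2.48 (SE 0.91). Lbp, at -3.60 (SE 1.25), was tested through I/R alone and is given as a description.

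The signaling proteins moved less evenly. Of 15 adaptors, kinases and ubiquitin ligases tested, 8 were called higher, 1 lower and 6 not called in I/R, with a median change of 0.74. Ticam2, which links Tlr4 to interferon signaling, rose by 3.30 (SE 0.75), the kinase Irak4, which binds Myd88, by 2.85 (SE 0.63), and the kinase Ikbke by 2.14 (SE 0.49). The 1 called lower was Traf3 (-1.16, SE 0.41, adjusted p = 0.0571, limma). All 8 transcription factors tested rose, with a median of 2.40, led by the interferon regulatory factors Irf7 (5.80, SE 1.20), Irf8 (4.59, SE 0.94) and Irf5 (3.21, SE 0.78). Between DHI and I/R, Irf7 stood at -3.49 (SE 1.20), Irf8 at -2.84 (SE 0.94) and Irf5 at -2.29 (SE 0.78), and 7 of the 8 factors were called lower at the unadjusted p.

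Of 8 inhibitors, I/R had 3 called higher and 2 called lower. Irak3, a decoy kinase, rose by 2.56 (SE 0.59), Nfkbia, which holds NF-kB in the cytoplasm, by 1.01 (SE 0.33), and the phosphatase Inpp5d was called at the unadjusted p alone (1.24, SE 0.44, adjusted p = 0.0608, limma). The 2 lower ones were Tollip (-0.81, SE 0.24) and the deubiquitinase Cyld (-1.01, SE 0.31). Of 8 endogenous ligands, 6 were called higher, led by the matrix proteins Bgn (3.37, SE 0.80) and Tnc (2.64, SE 0.63) and by S100a8 (2.01, SE 0.49), while Hmgb1 and Hspd1 were not called (-0.38, SE 0.48, and -0.22, SE 0.14).

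Of 12 target genes tested, 10 were called higher in I/R, with a median change of 3.53. The chemokines Cxcl10 (6.14, SE 1.34) and Ccl3 (5.86, SE 1.34) rose. The co-stimulatory Cd86 was not well above background in Sham. By the rule used for Tlr8 it was 65.5-fold higher in I/R, close to the fitted 65.8, so the fold rests on Sham signals at background. The 1 called lower was Ptgs2, the inducible cyclooxygenase (-1.99, SE 0.58), which was also the 1 pathway gene called higher in DHI versus I/R (1.41, SE 0.58). In DHI versus Sham, 6 were called higher at the unadjusted p, each with an adjusted p of 0.709 (limma). They were the adaptor Tirap (1.02, SE 0.29), Irf3 (0.79, SE 0.33), Nfkbia (0.76, SE 0.33), S100a8 (1.13, SE 0.49), the chemokine Ccl5 (1.00, SE 0.41) and Cd86. By the same rule Cd86 was 6.71-fold higher.

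**Figure D5:**
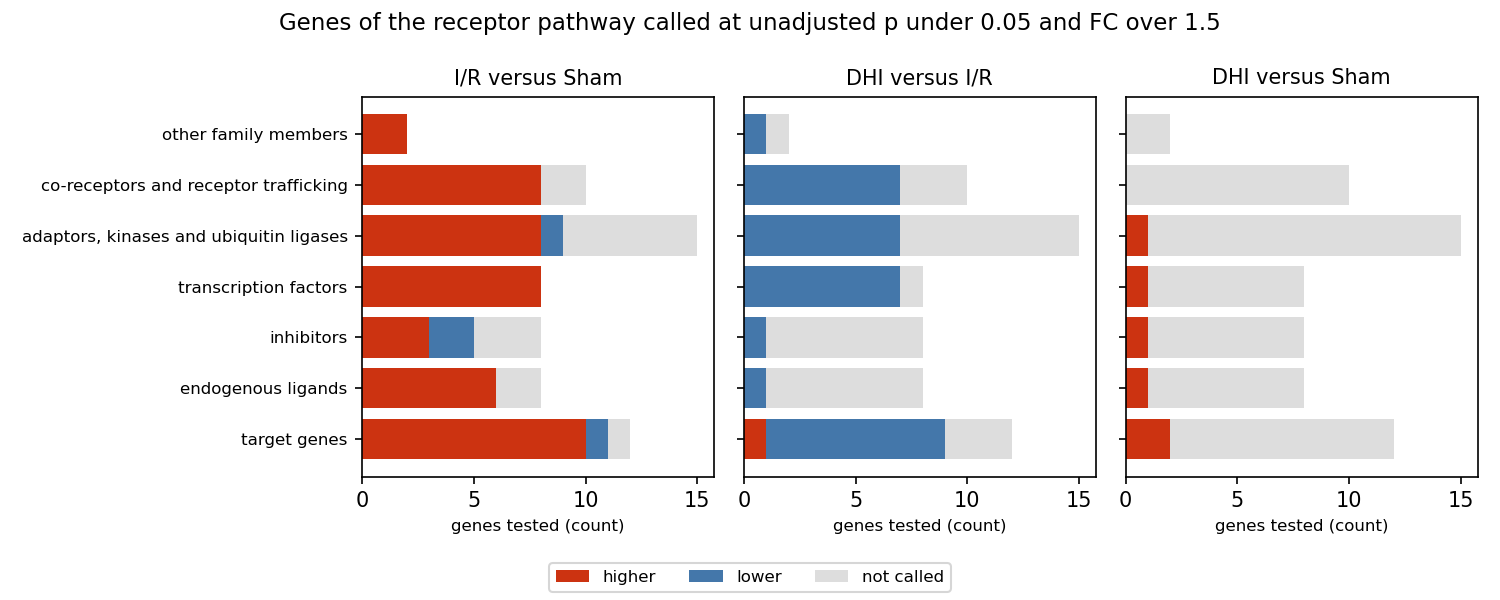
Number of genes tested in 7 lists of the receptor pathway (vertical axis) that were called higher, called lower or not called at an unadjusted p under 0.05 and FC over 1.5 (horizontal axis, count) in the 3 comparisons. Calls are mostly higher in I/R versus Sham, 45 of 63, and mostly lower or absent in DHI versus I/R.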

How the data were processed

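Expression was measured on 9 Agilent 1-color arrays, 3 per group, with groups and replicate numbers taken from the sample labels. The authors deposited Feature Extraction output (version 10.7.1.1), in which the processed intensity of each spot is corrected for background and not scaled between arrays, and a series table of log2 values per probe that followed quantile-normalized intensities (r = 0.99953 on each array) and whose method is not given in the sources used here. Depth per array is given by signal over background.

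Spot intensities were divided by each array's 75th percentile, taken without control and outlier spots, and their log2 values were averaged per probe. Probes well above background on all 3 arrays of a group (23747 of 30367) were tested with limma 3.58.1 in R 4.3.3, with 1 model over 9 arrays and Benjamini-Hochberg adjustment over all probes tested. Where a whole group was under that limit, the fold was taken against the dimmest signal that passed background per array, or the gene's own if higher. Some brighter signals did not pass, so such a fold is not a strict minimum. Tlr4 was compared by exact permutation tests. The methods' t-test assumes equal variances. All 10 member accessions matched RefSeq under the same symbol, and 0 columns of values were left unused. On simulated arrays with 200 of 23724 probes changed by 3 on the log2 scale, 98.5% were recovered at the thresholds of the study in I/R versus Sham (90% with the adjusted p), 99% for DHI against I/R (85%) and 98% for DHI against Sham (80%). False calls among the other probes were 840, 805 and 848, respectively, and 16, 4 and 11 with the adjusted p. The simulated noise was independent between probes and had the same spread in all groups. In the real arrays the spread differed between groups (Tlr4 SD 0.12 in Sham and 1.70 in DHI). These rates therefore check the code and do not give power or error for these data.

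The members and lists were chosen with earlier results of these data known. Named genes are all members, the 3 largest called changes per list in I/R versus Sham, the 5 genes most like Tlr4 (1 of them is not reported here), and genes that a count of 5 or fewer or a limit needs. Alternatives changed the normalization, background correction, filter, samples, weights, block, test, probe and single arrays. No annotation of the rn4 build was used. Figures were drawn with matplotlib 3.10.9.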

Additional observations from a re-analysis of the deposited data

How the results depend on the processing

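In I/R versus Sham, 8 members were called under every alternative, except 7 where a probe had to pass background on each of 9 arrays and Tlr8 was not tested, and 9 without a filter, where Tlr9 was added. The 8 include Tlr8, which was tested through I/R alone. Over all probes, calls in either direction ran from 7517 of 23747 (without I/R 1) to 13082 of 23747 (array weights). The count with the adjusted p was 0 with no scaling, where 0.00421% of all probes passed. It was 0 to 8 on leaving out 1 array, where 0% to 43.2% passed. In DHI versus I/R, the count was 1 with the methods' t-test, where 469 of 23747 probes were called in either direction. It was 2 to 8 on leaving out 1 array, where 3.95% to 45.2% of all probes were called. The count with the adjusted p was 8 with array weights, which were lowest for DHI 1 (0.09) and under which 49.8% of all probes passed. It was 0 to 8 on leaving out 1 array, where 0% to 40.1% of all probes passed. In DHI versus Sham, the count was 2 with normexp, where 1341 of 23747 probes were called, and 3 with array weights, where 3484 were. It was 0 to 4 on leaving out 1 array, where 1.45% to 10.6% of all probes were called. In this comparison Tlr4 turned to -0.0229 with array weights. On leaving out 1 array Tlr4 ran from -0.26 to 1.31, Cd14 from -0.45 to 1.90 and Myd88 from -0.15 to 1.02, each negative without DHI 1. Tlr4 minus the other receptors turned in I/R versus Sham to -1.29 with their median and -0.66 with the receptors well above background on all arrays, and ran from -0.0263 (without Sham 1) to 0.23 on leaving out 1 array. For DHI versus I/R it turned to 0.44 and 0.17, respectively, and ran from -0.69 to -0.31. In DHI versus Sham it was -0.85 with the median, -0.49 with those receptors, -0.0397 with normexp, and -0.57 to -0.19 on leaving out 1 array. With normexp it was 0.36 in I/R versus Sham. The cause was not tested.

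Same-numbered arrays correlated between -0.34 and 0.48 in their deviations, so the numbers were not taken as pairs. With the replicate number as a block, 1 member (Tlr7) was called in DHI versus Sham, where 1280 of 23747 probes were called. No other count of members changed. With no scaling, the median log2 change of all probes moved from -0.10 to 0.10 in I/R versus Sham and from 0.10 to -0.36 in DHI versus I/R, and the share of calls that were higher moved from 48.3% to 60.9% and from 52.2% to 4.8%. For DHI versus I/R it was 63.7% with normexp, and in DHI versus Sham it moved from 70.4% to 37.5% with quantile normalization, 5.21% with no scaling and 92.9% with normexp. Slide as a block was not run, since slide 2 held DHI alone. Dim signal limits Tlr5, Tlr8 and Tlr9.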
